A study of Mus musculus with 32 samples.

Results

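The tibialis anterior of Gaa-/- mice at 4 months of age was compared with the same muscle at 1.5 months, to describe how its gene expression changed over that span. The comparison rests on 8 of the 32 arrays of the series, 4 labelled Gaa-/- 1.5 mo and 4 labelled Gaa-/- 4 mo, and on all 19291 genes that carry a gene symbol among 20079 probe sets. The mice are labelled as a B6/129 mix, and the Gaa-/- genotype is given as GAA-KO 6neo/6neo, a germline loss that every cell of the animal carries. Wild-type (WT) mice of the same mix, 4 at 1.5 months and 4 at 4 months, give the change that the same ages bring without the mutation. The other 16 arrays are of both genotypes at 6 and 9 months, again 4 animals in each group, and the labels name no treatment. Per the labels' protocols, about 20 mg of muscle kept in RNAlater gave the RNA of each array, 100 ng of which was labelled with biotin for a 1-colour Affymetrix array. The labels give neither the sex of the animals nor the hour at which the muscles were taken.

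Gaa encodes acid alpha-glucosidase, the enzyme that breaks down glycogen inside the lysosome. Its loss causes Pompe disease, in which lysosomes swollen with glycogen and stalled autophagic material build up in muscle fibres. The tibialis anterior is a fast limb muscle, and between 1.5 and 4 months a mouse passes from late growth to adulthood. Skeletal muscle also runs its own circadian clock, in which BMAL1 (encoded by Arntl) and its partners CLOCK or NPAS2 drive genes such as Dbp, Per3, Nr1d1 and Ciart, whose products include repressors that act back on the loop.

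The genotype labels were checked on Gaa itself. The 4 Gaa-/- arrays at 1.5 months read 6.63, 6.55, 6.55 and 6.69 log2 units for Gaa, and the 4 at 4 months read 6.70, 6.87, 7.11 and 7.25. The 8 WT arrays at these ages lay between 10.09 and 10.63, so no Gaa-/- array overlapped them. The difference from WT was -3.69 ± 0.13 at 1.5 months and -3.55 ± 0.13 at 4 months (estimate ± SE, limma), and at either age the exact permutation p (two-sided, 4 arrays against 4) was 0.0286, the smallest possible. Where the Gaa probes lie relative to the disrupted part of the gene is not known here. Within Gaa-/-, Gaa differed by 0.38 ± 0.13 between the ages, which did not pass the threshold (adjusted p = 0.15). All 13 marker genes of skeletal muscle that were looked up (such as Acta1, Ckm, Myh4 and Pvalb) read between 11.35 and 13.77 on the 8 Gaa-/- arrays. None of the 13 passed the test with age, and 2 had an unadjusted p under 0.05. The SD of all values on an array, called the array spread here, was 1.887 to 1.965 on the Gaa-/- arrays at 1.5 months and 1.939 to 2.028 at 4 months (exact two-sided permutation p = 0.0857). No background level was measured, so the fold of a gene whose lower group lay under the lowest array median, 5.664, is best read as a lower bound. That applies to 38 of the called genes, among them Aqp4, Ciart, Npas2, Ifrd1, Slc20a1, Noxred1, Kyat3, Wsb1, Nt5dc2, Mc5r, C1qtnf6, Idi1, Gpnmb, Gem, Klk1b8 and Gstt2.

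Between 1.5 and 4 months, 205 genes changed in Gaa-/- muscle past an adjusted p of 0.05 (limma, Benjamini-Hochberg over 19291 genes). Of these, 138 were higher at 4 months (0.715% of the genes tested) and 67 were lower (0.347%). The changes were mostly modest, with a median size of 0.69 log2 units, and 25 rises and 9 falls reached 2-fold. The 4 arrays of one age did not overlap the 4 of the other for 194 of the 205, which the choice by p largely builds in, and for 1770 of all genes (9.18%). In WT over the same span, 88 genes passed, 56 higher (0.29%) and 32 lower (0.166%). The WT count was 53 without 1.5 months replicate 4, 57 and 54 without 4 months replicate 1 and 2, and 151 without 4 months replicate 3. Over all genes the median difference was -0.03 in Gaa-/- and -0.01 in WT. An unadjusted p under 0.05 (limma) was reached by 2866 of the 19291 genes in Gaa-/- and by 1780 in WT. Counts of unadjusted p-values in the gene lists are to be read against these. Among the called genes without overlap, the largest rises in Gaa-/- were those of Nr4a3, Arntl, Serpina3n, Rrad and Klk1b22. The largest falls were those of Dbp, Aqp4, Ciart, Nr1d1 and Per3.

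The number and the balance of the calls moved with the scaling and with single arrays. Centring each array on its median gave 200 higher and 52 lower, a second quantile normalization 105 and 78, and the array spread as a covariate 40 and 55. Without Gaa-/- 4 months replicate 1 the total rose to 466. It fell to 79 without Gaa-/- 1.5 months replicate 3 and to 125 without replicate 4 of that age. At 4 months it was 120 without replicate 2, 90 without replicate 3 and 123 without replicate 4. Of the 205 genes, 57 (34 higher, 23 lower) passed in each of the 8 fits that left out 1 array. Where a gene passed in fewer than 8 of these fits, the text gives that number or names the arrays concerned.

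**Figure D1:**
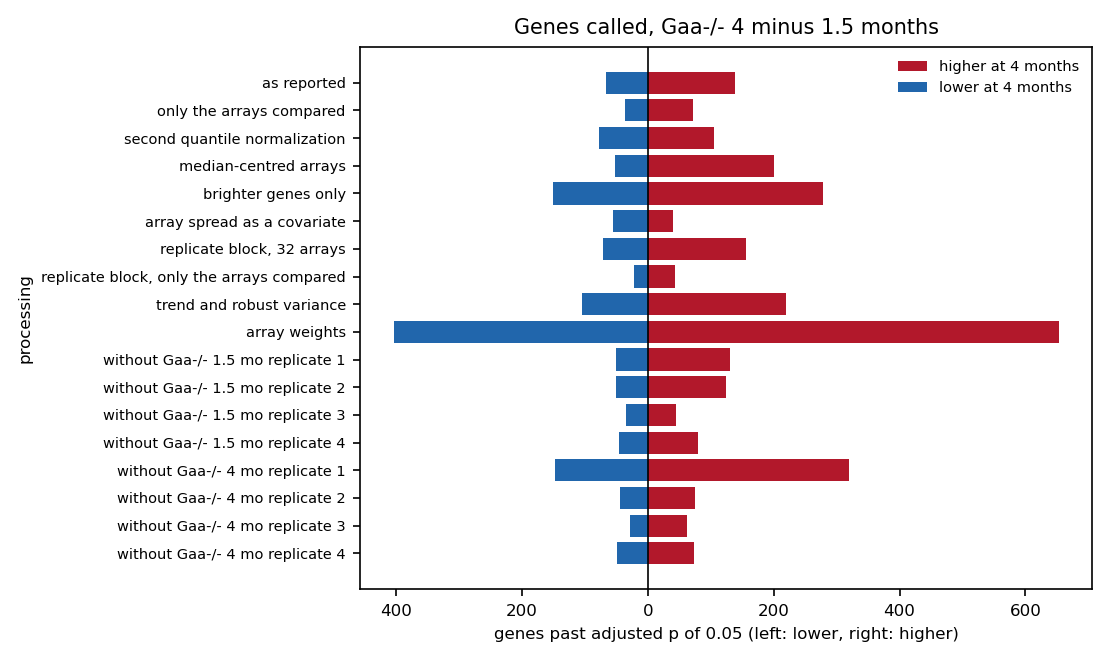
Number of genes past an adjusted p of 0.05 for Gaa-/- 4 minus 1.5 months (x axis; lower at 4 months to the left, higher to the right) under each processing and without each array (y axis). As reported, 138 genes were higher and 67 lower. Under each setting but the array spread as a covariate (40 higher, 55 lower), the higher calls outnumbered the lower ones.

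Circadian clock genes were among the largest changes in both directions. Of 18 clock genes measured, 4 rose (Arntl, Npas2, Nfil3 and Clock) and 6 fell (Dbp, Ciart, Nr1d1, Per3, Nr1d2 and Bhlhe41). Their median difference was -0.28, against -0.03 over all genes, and 6 of the 18 differences were above 0. The labels do not give the hour of collection, so for these genes a difference in hour and a difference in age cannot be told apart. The promoters of 4 of these genes are printed here because they hold matches to short patterns, based on motifs through which clock proteins are known to act. The window runs from 250 bases before to 50 bases after the gene start (RefSeq, GRCm38.p6), written 5′ to 3′ along the gene, and 16 of the 18 clock genes had at least 1 window in the table. The motifs were searched on both strands and are in capitals where found, and none contains another. The E-box CACGTG, bound by BMAL1 with CLOCK, was in 7.15% of all 32851 windows. The D-box TTATGTAA, bound by DBP and its repressor NFIL3, was in 0.938%, and the pattern TNGGTCA was in 11.0%. That pattern allows any base at its second position, where the element bound by ROR and REV-ERB receptors has A or G. A match to it need therefore not be such an element.
Arntl (chr7:113207215-113207514, + strand): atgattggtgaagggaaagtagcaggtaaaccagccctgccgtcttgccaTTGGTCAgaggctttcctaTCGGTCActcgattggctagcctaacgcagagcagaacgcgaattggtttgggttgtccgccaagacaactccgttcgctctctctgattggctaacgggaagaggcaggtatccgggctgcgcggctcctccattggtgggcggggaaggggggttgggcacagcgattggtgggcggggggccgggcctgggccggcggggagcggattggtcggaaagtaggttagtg
Nfil3 (chr13:52980990-52981289, - strand): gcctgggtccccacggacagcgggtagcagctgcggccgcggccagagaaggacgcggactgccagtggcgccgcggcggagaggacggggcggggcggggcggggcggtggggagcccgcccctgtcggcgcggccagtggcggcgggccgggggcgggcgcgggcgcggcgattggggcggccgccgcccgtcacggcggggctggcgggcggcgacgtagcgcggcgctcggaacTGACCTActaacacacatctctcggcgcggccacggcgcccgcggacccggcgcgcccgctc
Per3 (chr4:151044616-151044915, - strand): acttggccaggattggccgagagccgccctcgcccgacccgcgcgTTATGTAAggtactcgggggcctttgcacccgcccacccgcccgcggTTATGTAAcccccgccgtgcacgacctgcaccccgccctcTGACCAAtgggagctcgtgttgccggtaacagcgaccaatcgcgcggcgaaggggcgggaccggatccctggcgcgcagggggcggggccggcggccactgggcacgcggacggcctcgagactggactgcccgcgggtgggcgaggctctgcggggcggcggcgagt
Ciart (chr3:95882179-95882478, - strand): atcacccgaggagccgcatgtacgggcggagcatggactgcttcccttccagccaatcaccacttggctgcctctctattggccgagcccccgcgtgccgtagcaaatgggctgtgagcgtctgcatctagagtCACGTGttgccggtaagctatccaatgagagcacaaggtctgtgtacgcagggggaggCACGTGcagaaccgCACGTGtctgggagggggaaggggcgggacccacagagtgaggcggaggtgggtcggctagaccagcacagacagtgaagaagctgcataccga

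In these windows, Arntl held 2 matches to TNGGTCA, with T and C at the second position, so neither has A or G there. Nfil3 held 1, which has A there when read on the opposite strand. Arntl has a further start site, whose window is not printed and held 3 matches, among them TAGGTCA with A there. Per3 held 2 D-boxes and 1 match to TNGGTCA, with T at the second position on the opposite strand, and Ciart held 3 E-boxes. Among the 4 clock genes that rose, 2 had a match to TNGGTCA and 0 had an E-box. Among the 6 that fell, 2 had an E-box (Ciart and Bhlhe41), 1 a D-box and 1 a match to TNGGTCA. Of the 8 clock genes that did not pass, 6 had a window, and 3 of these had an E-box, 0 a D-box and 2 a match to TNGGTCA. These are matches of letters in a short window. Of the clock genes that passed, Clock and Npas2 (higher) and Dbp, Nr1d1 and Nr1d2 (lower) had none of the 3 motifs there.

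Arntl, the core activator, read 6.53, 6.07, 5.85 and 5.78 on the 4 arrays at 1.5 months and 7.71, 7.75, 8.22 and 8.24 at 4 months. Every array at 4 months was more than 1 log2 unit above every array at 1.5 months, and the difference was 1.92 ± 0.17 (3.79-fold, adjusted p = 2.92e-08). Nfil3, a repressor that competes with DBP, read 6.57, 6.03, 5.99 and 6.01 at 1.5 months and 7.30, 7.13, 8.08 and 6.84 at 4 months, a rise of 1.19 ± 0.21 (adjusted p = 0.00254). Npas2 rose by 1.04 ± 0.25 (adjusted p = 0.0315) and Clock by 0.49 ± 0.11 (adjusted p = 0.0228). These last calls were weaker: Npas2 passed in 3 and Clock in 4 of the 8 fits that left out 1 array, with adjusted p up to 0.162 and 0.116.

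The 6 clock genes that fell are outputs and repressors of the loop, while others of that kind (Per1, Per2, Cry1, Cry2, Tef, Hlf and Bhlhe40) did not pass. Dbp, a direct target gene of BMAL1 that encodes a transcription factor, read 10.06, 10.90, 10.72 and 11.15 at 1.5 months and 8.46, 9.15, 8.39 and 8.81 at 4 months. The groups were far apart, with a difference of -2.005 ± 0.22 (4.01-fold lower, adjusted p = 1.76e-06). Ciart, which encodes a repressor of the clock, read 5.61, 6.42, 6.28 and 6.45 and then 4.52, 4.39, 5.41 and 4.50. Its lowest value at 1.5 months stood above its highest at 4 months, and it fell by 1.49 ± 0.25 (adjusted p = 0.0019). Nr1d1 and Nr1d2, which encode the REV-ERB repressors of Arntl, differed by -1.30 ± 0.17 (adjusted p = 6.27e-05) and -0.81 ± 0.11 (adjusted p = 8.10e-05). Per3, a period gene, differed by -1.29 ± 0.18 (adjusted p = 0.000104). Bhlhe41, another repressor, differed by -0.62 ± 0.15 (adjusted p = 0.0299) and passed in 2 of the 8 fits without an array.

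WT muscle showed clock changes over the same ages. There, 9 of the 18 genes passed, 2 higher and 7 lower. Arntl differed by 1.59 ± 0.17 (adjusted p = 1.27e-06), Npas2 by 1.18 ± 0.25 (adjusted p = 0.0163), Dbp by -2.01 ± 0.22 (adjusted p = 1.30e-06) and Ciart by -2.01 ± 0.25 (adjusted p = 2.05e-05). Per3, Nr1d2, Per1, Per2 and Cry2 were the other 5, all lower. Per1 and Per2 encode further period repressors. Per2 differed by -1.36 in WT (adjusted p = 0.000114) and by -0.58 in Gaa-/- (adjusted p = 0.13). No clock gene passed the test of the difference between the genotypes. The smallest adjusted p of that interaction was 0.357, for Bhlhe41, which read 8.26 to 8.55 in WT at 1.5 months and 8.19 to 8.69 at 4 months. The deubiquitinase gene Usp2, a known clock output that was not on the list, fell in both genotypes (-0.69 ± 0.12 in Gaa-/-, adjusted p = 0.0028, and -0.85 ± 0.12 in WT, adjusted p = 0.000151). At 6 and 9 months the Gaa-/- means of Arntl were 7.41 and 6.72, and the Dbp arrays read 8.97 to 9.13 and 9.65 to 10.49. The 9-month mean of Arntl lay nearer to that at 1.5 months (6.06) than the 6-month mean did.

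**Figure D2:**
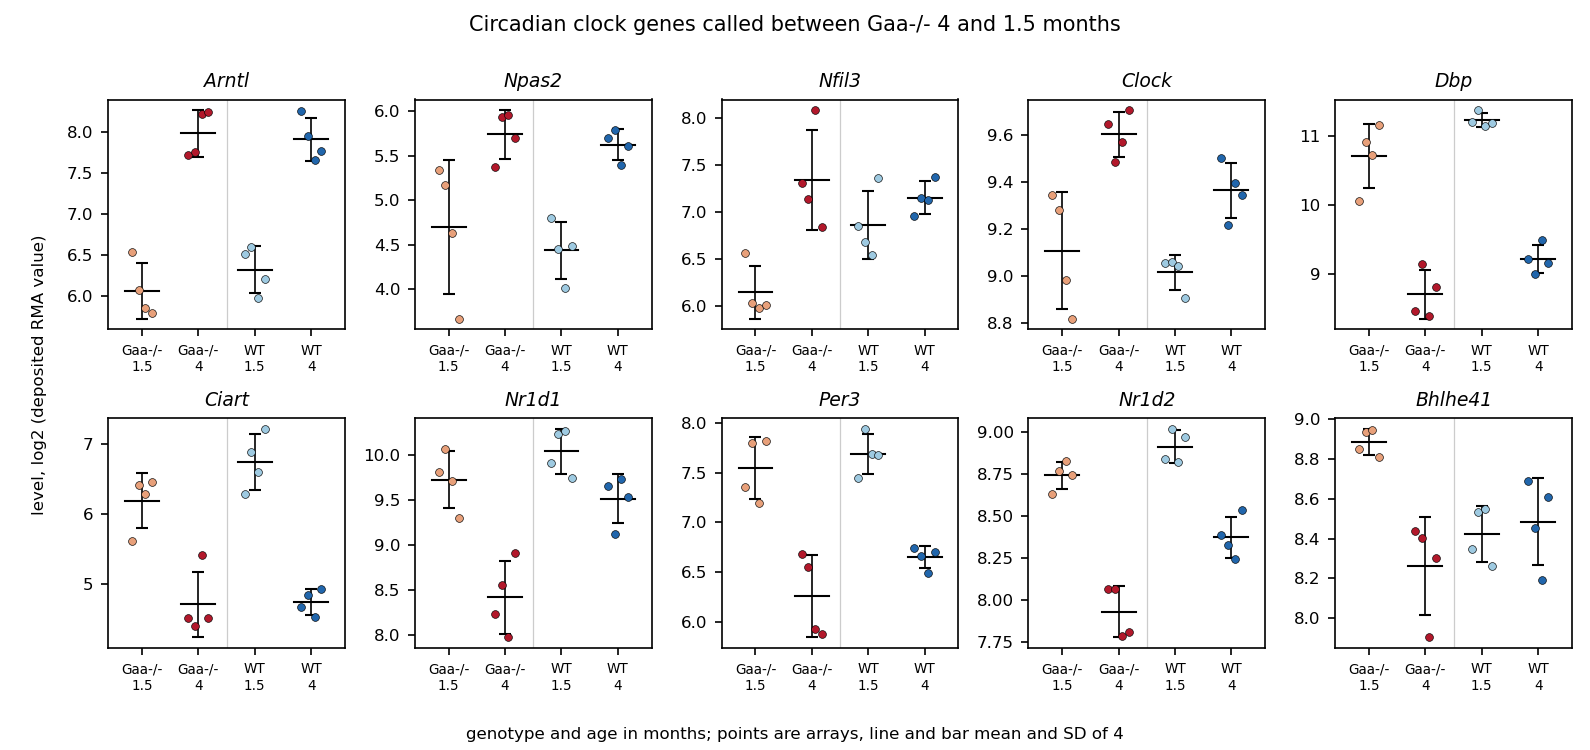
Levels of the 10 clock genes past the threshold in Gaa-/- (y axis, log2, deposited values) by genotype and age in months (x axis); points are single arrays, lines and bars the mean and SD of 4. In Gaa-/- the Arntl arrays move from 5.78 to 6.53 up to 7.71 to 8.24 and the Dbp arrays from 10.06 to 11.15 down to 8.39 to 9.15, and WT arrays move the same way for both.

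Several collagen genes were lower at 4 months. Of 37 extracellular matrix genes measured, 9 fell and 2 rose, and 30 of the 37 differences were below 0. Their median was -0.35 in Gaa-/- and -0.16 in WT, against -0.03 and -0.01 over all genes. In WT none of the 37 passed (limma, with 11 at an unadjusted p under 0.05), and none passed the interaction, so a difference between the genotypes was not shown (Col1a1, for example, differed by -0.89 ± 0.24 in WT, adjusted p = 0.107). In whole muscle, fewer matrix-producing cells and less RNA in each cannot be told apart.

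Col3a1, the chain of type III collagen, read 11.53, 11.14, 11.38 and 10.94 on the arrays at 1.5 months and 10.16, 10.27, 9.90 and 9.86 at 4 months. All 4 older muscles lay below all 4 younger ones, by -1.20 ± 0.20 (2.3-fold lower, adjusted p = 0.00146). Collagen VI, which forms microfibrils around muscle fibres, fell through each of its 3 measured chains. Col6a3 read 9.20, 9.39, 9.06 and 8.86 and then 8.38, 8.35, 8.19 and 8.35, a difference of -0.81 ± 0.15 (adjusted p = 0.00428). Col6a2 differed by -0.74 ± 0.12 (adjusted p = 0.00146) and Col6a1 by -0.57 ± 0.13 (adjusted p = 0.0228), the last of which passed in only 3 of the 8 fits without an array.

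Other fibrillar and basement membrane collagens also passed. Col1a1, a chain of type I collagen, read 10.04, 9.19, 9.79 and 9.00 and then 8.51, 8.85, 8.30 and 8.17, and differed by -1.05 ± 0.24 (adjusted p = 0.025). Its groups did not overlap, but the call was lost without replicate 1 or 3 at 1.5 months or replicate 3 or 4 at 4 months (adjusted p up to 0.119). Sparc, which encodes a collagen-binding glycoprotein, differed by -0.78 ± 0.17 (adjusted p = 0.0144) and Col5a1, which helps set the width of collagen fibrils, by -0.77 ± 0.16 (adjusted p = 0.0109). Sparc was lost without 1.5 months replicate 3 or 4 months replicate 4, and Col5a1 without 1.5 months replicate 3 (adjusted p up to 0.0745 and 0.0741). Col15a1 and Col4a2, of the basement membrane zone, differed by -0.57 and -0.48 and passed in 5 and 3 of the 8 fits. The count of 9 falls was 4 without 1.5 months replicate 3, 5 without replicate 1 of that age, and 6 without 4 months replicate 3 or 4. It was 5 with only the 8 arrays compared and 6 once array spread entered the model. Across the processing alternatives it ran from 4, with a replicate block on those 8 arrays, to 12, with array weights or with brighter genes only. The 2 rises were P4ha1 (0.48 ± 0.12) and P4ha2 (0.50 ± 0.12), prolyl hydroxylases that modify new collagen chains, and each passed in 2 of the 8 fits, with adjusted p up to 0.162 and 0.168.

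The levels at 1.5 months differed between the genotypes for some of these collagens. Col3a1 was 11.25 ± 0.26 (SD, n = 4) in Gaa-/- and 10.23 ± 0.50 in WT at 1.5 months, a difference of 1.01 ± 0.20 (adjusted p = 0.00147), and Col6a3 was 9.13 ± 0.23 and 8.15 ± 0.31 (0.97 ± 0.15, adjusted p = 7.34e-05). At 4 months the same differences were 0.29 ± 0.20 (adjusted p = 0.53) and 0.45 ± 0.15 (adjusted p = 0.0866). These comparisons use the same Gaa-/- arrays as the age comparison. For Col1a1 the genotype difference was 0.08 ± 0.24 at 1.5 months and -0.08 ± 0.24 at 4 months, neither past the threshold.

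**Figure D3:**
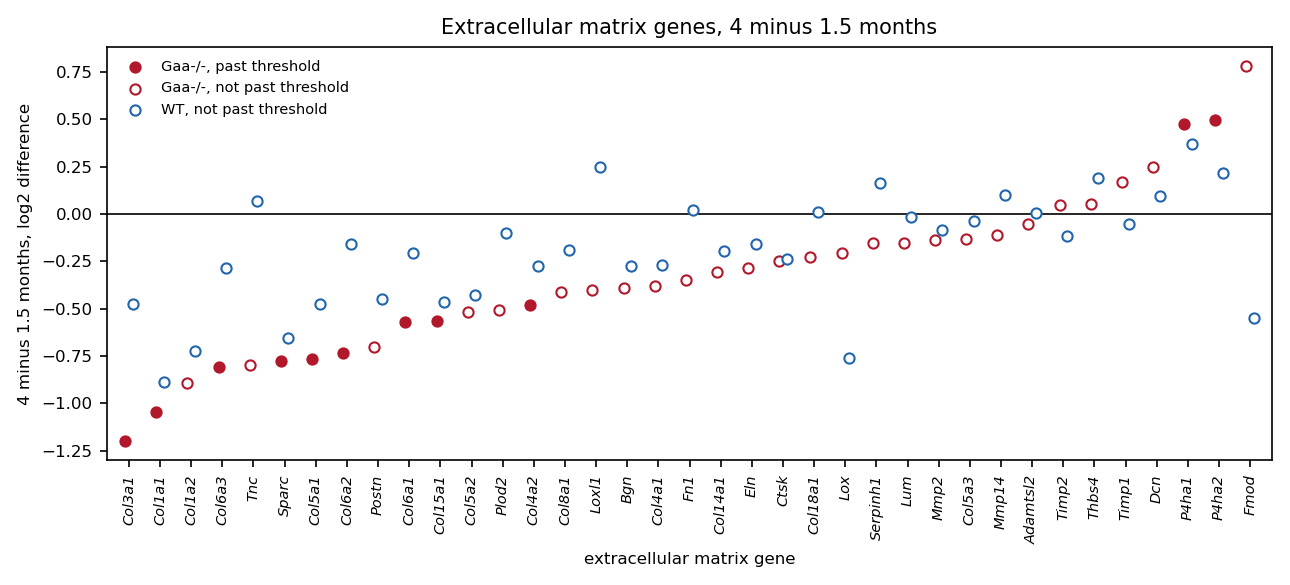
Difference between 4 and 1.5 months (y axis, log2) of each of the 37 matrix genes (x axis, ordered by the Gaa-/- difference) in Gaa-/- (red) and WT (blue); filled points passed an adjusted p of 0.05. The 9 filled points below 0 run from Col3a1 (-1.20) to Col4a2 (-0.48), and no WT point is filled.

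Among the largest falls outside the matrix list were C1qtnf6, Frzb and Itm2a. C1qtnf6, a secreted protein with a collagen-like domain, read 6.76, 6.30, 6.48 and 6.12 and then 5.70, 5.34, 5.37 and 5.52, a difference of -0.93 ± 0.14 (adjusted p = 0.000703). Frzb, a secreted inhibitor of Wnt signalling, fell from between 7.80 and 8.38 to between 6.85 and 7.25, by 1.04 ± 0.22 (adjusted p = 0.0109). Itm2a, a membrane protein of muscle and cartilage differentiation, differed by -0.87 ± 0.16 (adjusted p = 0.00397). Of 14 imprinted growth genes, 1 fell: Mest differed by -0.83 ± 0.20 (adjusted p = 0.0364), passing in 3 of the 8 fits. The median of that list was -0.20 in both genotypes.

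A few genes induced by cell stress and by stimulation rose. Of 22 immediate early genes, which respond within minutes to a signal, 3 rose (Nr4a3, Atf3 and Myc) and none fell, with 18 of 22 differences above 0 and a median of 0.25. In WT the median was -0.15 and none passed (3 at an unadjusted p under 0.05). Atf3, a transcription factor of the stress response, read 6.10, 5.93, 6.53 and 6.05 at 1.5 months and 7.64, 6.77, 7.71 and 7.78 at 4 months, where 1 array was clearly lower than the other 3. The groups did not overlap, and the rise was 1.32 ± 0.27 (2.5-fold, adjusted p = 0.00861). In WT, Atf3 read 5.61 to 5.95 and 5.32 to 6.05 and differed by -0.07 ± 0.27. The interaction did not pass (adjusted p = 0.258).

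Nr4a3, a nuclear receptor induced by exercise, had the largest rise in Gaa-/- among the called genes whose groups did not overlap. Its arrays read 8.45, 8.01, 8.33 and 7.76 and then 10.79, 9.98, 10.81 and 9.42, a difference of 2.11 ± 0.54 (4.33-fold, adjusted p = 0.0448). The spread was wide and the call rested on all arrays together, since it passed in only 1 of the 8 fits without an array (adjusted p up to 0.186). Its relative Nr4a2 differed by 1.27 ± 0.33, just short of the threshold (adjusted p = 0.0503). Myc, a growth regulator, rose by 0.88 ± 0.22 (adjusted p = 0.0454) and likewise passed in 1 of 8 fits. Without 7 of the 8 arrays in turn, the count of 3 immediate early genes was 1 or 2, and it was 3 without 4 months replicate 4. Ifrd1, a regulator of muscle gene expression under stress, rose from between 5.16 and 5.67 to between 6.55 and 7.61, by 1.62 ± 0.31 (adjusted p = 0.00544).

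Single chaperone and redox genes also rose. Among 17 heat shock genes, Hsp90aa1 rose and none fell. Hsp90aa1, the inducible HSP90 chaperone, read 8.19, 7.96, 8.56 and 8.01 and then 9.23, 9.26, 9.99 and 9.87, a difference of 1.41 ± 0.27 (2.65-fold, adjusted p = 0.00493). With the array spread as a covariate its adjusted p was 0.0582. Among 28 genes of the integrated stress and unfolded protein response, 2 rose, Atf3 and Hspa5, and the median was 0.19 (0.02 in WT). Without 4 months replicate 1, 6 of the 28 rose, and without any other single array 1 did. With array weights the counts of rises were 9 of 28 in that list and 7 of 17 among the heat shock genes. Hspa5, the main chaperone of the endoplasmic reticulum, read 10.51, 10.49, 10.59 and 10.51 and then 10.61, 11.20, 11.43 and 11.30. Its rise of 0.61 ± 0.15 was close to the threshold (adjusted p = 0.0449) and passed in 1 of the 8 fits. Among 22 NRF2 and antioxidant genes, 2 rose. Txnrd1, a thioredoxin reductase, read 8.34, 8.28, 8.11 and 8.36 and then 8.81, 8.88, 9.23 and 9.01, a difference of 0.71 ± 0.14 (adjusted p = 0.00493). Srxn1, which repairs oxidised peroxiredoxins, rose by 0.69 ± 0.16 (adjusted p = 0.0295) and passed in 3 of the 8 fits. Srxn1 was already above WT at 1.5 months, by 1.29 ± 0.16 (adjusted p = 2.76e-06), and was above it by 2.003 ± 0.16 at 4 months.

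Lists of genes of the fibre's membrane, calcium handling and cytoskeleton gave 1 or 2 calls each. Rrad, a small GTPase that restrains calcium channels, was the 1 gene of 24 for calcium handling that rose. It read 6.54, 6.66, 6.00 and 6.43 and then 8.08, 8.38, 8.24 and 7.61, a difference of 1.67 ± 0.30 (3.19-fold, adjusted p = 0.00341), while WT arrays read 4.38 to 4.83 and 4.61 to 5.14. Map1b, a microtubule-associated protein, was the 1 of 20 tubulin and microtubule genes that rose. It read 8.53, 8.32, 8.13 and 8.40 and then 9.70, 9.26, 8.79 and 9.11, and rose by 0.87 ± 0.16 (adjusted p = 0.00318). Of 14 water and ion channel genes of the fibre membrane, 1 rose and 1 (Aqp4, described with the interaction) fell. Kcnn3, a calcium-activated potassium channel, rose by 0.76 ± 0.16 (adjusted p = 0.0147), and was lost without 1.5 months replicate 3 or 4 months replicate 4 (adjusted p up to 0.0864). Lrtm1, a leucine-rich repeat membrane protein, fell from between 8.68 and 9.19 to between 7.73 and 8.15, by 0.97 ± 0.17 (adjusted p = 0.00318).

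Regulators of muscle cell identity gave few calls. Of 20 satellite cell and myogenic genes, Myf6 and Sdc4 rose and none fell. Myf6 encodes the myogenic factor MRF4, which is at home in mature fibres, and differed by 0.71 ± 0.15 (adjusted p = 0.0158). Sdc4, a surface proteoglycan of satellite cells among other cells, differed by 0.64 ± 0.14 (adjusted p = 0.0187). Each passed in 5 of the 8 fits. Of 20 genes of the neuromuscular junction and the response to denervation, Ncam1, an adhesion molecule that returns to the surface of denervated or regenerating fibres, rose by 0.58 ± 0.14 (adjusted p = 0.0317, 2 of 8 fits). Ncam1 read 9.31 to 9.67 in Gaa-/- against 6.72 to 6.995 in WT at 4 months. Runx1 and Musk, also linked to denervation, differed by 0.57 ± 0.17 and 0.34 ± 0.16, neither past the threshold. The embryonic myosin gene Myh3 differed by 0.96 ± 0.28 (adjusted p = 0.0817).

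**Figure D4:**
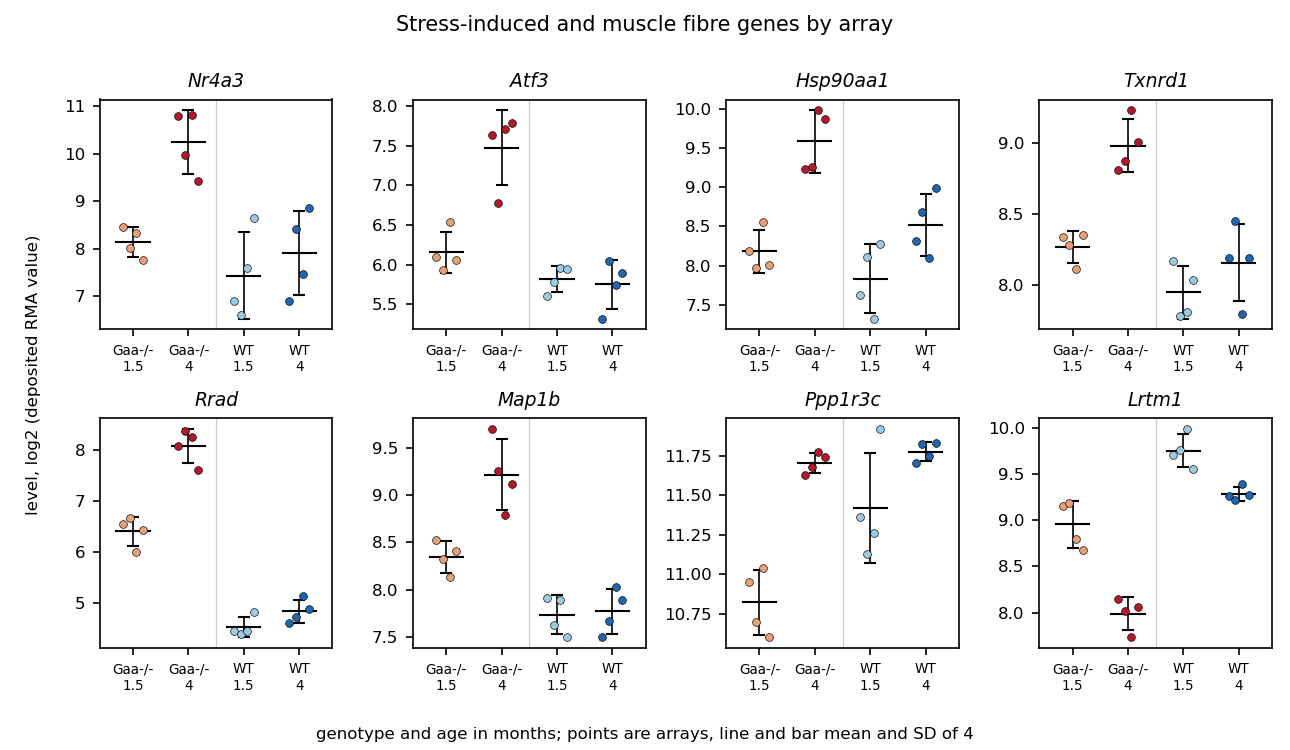
Levels of 8 genes of the stress response and of the muscle fibre (y axis, log2, deposited values) by genotype and age in months (x axis); points are arrays, lines and bars the mean and SD of 4. Atf3 rises from 5.93 to 6.53 up to 6.77 to 7.78 in Gaa-/- and stays between 5.32 and 6.05 in WT, and Lrtm1 falls in Gaa-/- from 8.68 to 9.19 down to 7.73 to 8.15.

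Genes of the lysosome and of glycogen turnover, the processes that loss of Gaa touches directly, gave 1 call between these ages. None of 42 lysosomal genes passed (limma, 10 at an unadjusted p under 0.05), with a median of 0.11 (0.02 in WT) and 30 differences above 0. Over all 19291 genes, 2866 had an unadjusted p under 0.05. Nearest the threshold were Hexa, a subunit of hexosaminidase (0.52 ± 0.14, adjusted p = 0.0542), and Galc, galactosylceramidase (0.62 ± 0.17, adjusted p = 0.0583). None of 17 subunits of the proton pump of the lysosome passed (8 unadjusted, median 0.13), nor did any of 42 autophagy genes (9 unadjusted, median 0.11). Of 20 genes of glycogen synthesis and breakdown, 1 rose. Ppp1r3c, a subunit that brings protein phosphatase to glycogen and favours its synthesis, read 10.95, 10.70, 11.04 and 10.60 and then 11.63, 11.68, 11.77 and 11.74, a difference of 0.88 ± 0.18 (adjusted p = 0.0107). Its WT arrays read 11.13 to 11.92 and 11.70 to 11.83, and the WT difference of 0.36 ± 0.18 did not pass. At 6 and 9 months the Gaa-/- means of Ppp1r3c were 10.89 and 10.19. None of the 4 metallothioneins passed (3 unadjusted, all but Mt2). Mt1 and Mt2 differed by 0.47 ± 0.19 and 0.51 ± 0.28, and Mt3 and Mt4 by -0.55 ± 0.18 and -0.49 ± 0.18. Under the processing alternatives other than left-out arrays, 0 to 4 lysosomal, 0 to 3 proton pump and 0 to 4 autophagy genes passed, all of them higher at 4 months. Of the fits without 1 array, the lysosomal list had 2 higher without 4 months replicate 1, 1 higher without 1.5 months replicate 1 and 1 lower without 4 months replicate 4.

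Energy metabolism and the contractile proteins gave almost no calls. None passed among 63 oxidative phosphorylation genes (6 unadjusted), 27 fatty acid genes (6 unadjusted, median 0.20), 21 genes of glycolysis (2 unadjusted, median -0.04), 12 slow fibre genes (2 unadjusted) or 15 fast fibre genes (2 unadjusted). Without 4 months replicate 1, 6 of the fatty acid genes passed, all higher, and without any other single array 0 did. Pdk4, which switches fibres from glucose to fat, differed by 0.88 ± 0.27 (adjusted p = 0.0963). Of 20 genes of amino acid and nucleotide metabolism, Slc38a2, an amino acid transporter, rose by 0.78 ± 0.16 (adjusted p = 0.00929) and Ampd1 fell. Of 19 genes of lipid synthesis, Idi1 of the cholesterol pathway rose by 0.72 ± 0.15 (adjusted p = 0.0123), and was lost without 1.5 months replicate 3 or 4 months replicate 4. Irs1, which carries the insulin signal, was the 1 of 21 growth factor signalling genes that rose (0.81 ± 0.18, adjusted p = 0.016, 5 of 8 fits). Myostatin (Mstn) differed by -0.56 ± 0.21 (adjusted p = 0.192). None passed among 16 atrophy genes (3 unadjusted), where Trim63 came nearest (0.62 ± 0.17, adjusted p = 0.0621), 30 proteasome genes (1 unadjusted), 34 cell cycle genes (2 unadjusted), 18 p53 targets (3 unadjusted) or 26 interferon response genes (0 unadjusted). The same held for 32 ribosomal protein genes (6 unadjusted), 11 mitochondrial regulators (6 unadjusted) and 16 developmental muscle proteins (5 unadjusted).

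Markers of the other cells of muscle gave few calls. Of 28 macrophage markers 1 rose, and their median was 0.19 (0.08 in WT). Gpnmb, a glycoprotein of lipid- or debris-laden macrophages, read 5.67, 5.36, 5.16 and 6.08 and then 6.12, 6.08, 7.02 and 6.92, a difference of 0.96 ± 0.20 (adjusted p = 0.0123). The call was lost without 1.5 months replicate 3 or 4 months replicate 3 or 4 (adjusted p up to 0.092). The mean level of the 28 markers was 5.82 to 6.19 on the arrays at 1.5 months and 6.04 to 6.45 at 4 months, so the ages overlapped. Of 17 fibroblast markers, Apod and Cxcl14 rose (0.90 ± 0.19 and 0.58 ± 0.12, adjusted p = 0.0109 and 0.0109). Apod was lost without replicate 3 of either age and Cxcl14 without 1.5 months replicate 4. The mean level of the 17 was 7.23 to 7.52 at 1.5 months and 7.18 to 7.58 at 4 months. By the same measure, the mean level of the 37 matrix genes was 7.758 to 8.313 at 1.5 months and 7.625 to 7.891 at 4 months. Both lists thus overlapped between the ages. The part of the fibroblast level in the fall of the called matrix genes was not tested. Of 12 smooth muscle and pericyte markers, Kcnj8, a potassium channel subunit, fell by 0.53 ± 0.13 (adjusted p = 0.0404, 2 of 8 fits). Of 14 tendon and cartilage markers, Prg4, the joint lubricant lubricin, rose by 1.10 ± 0.24 (adjusted p = 0.016, 5 of 8 fits). None passed among the markers of MHC class II presentation (6 measured, 0 at an unadjusted p under 0.05), T and natural killer cells (13, 0), B cells (7, 1), neutrophils (9, 0), endothelium (13, 3), Schwann cells (11, 2), adipocytes (9, 0), blood (4, 0) and skin (9, 1). The adipocyte median was 0.47, with 8 of 9 differences above 0, and the mean level of these markers was 6.38 to 6.70 at 1.5 months and 6.66 to 7.26 at 4 months. In WT the median was -0.17, with 1 of 9 differences above 0 and 1 gene past the threshold, lower at 4 months. The WT mean level was 6.52 to 7.39 at 1.5 months and 6.47 to 6.88 at 4 months. No adipocyte marker passed the interaction.

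The remaining large changes fell outside the lists. Tiam2, an activator of the Rac GTPase, rose from between 5.29 and 6.17 to between 6.84 and 7.68, by 1.62 ± 0.27 (adjusted p = 0.0019). Kyat3, a kynurenine aminotransferase, rose by 1.22 ± 0.23 (adjusted p = 0.00428). Wsb1, part of a ubiquitin ligase, rose by 1.22 ± 0.23 (adjusted p = 0.00428), with 1 array at 4 months well below the other 3 (5.79, 7.15, 7.24 and 6.91). Noxred1, an oxidoreductase-like gene, rose by 1.37 ± 0.22 (adjusted p = 0.00118). Slc20a1, a phosphate transporter, rose by 1.397 ± 0.28 (adjusted p = 0.00791) and was lost without replicate 3 of either age. Cers6, a ceramide synthase, rose by 1.22 ± 0.28 and Klk1b22, a kallikrein, by 1.66 ± 0.36. They passed in 3 and 5 of the 8 fits, and near-identical copies of the kallikrein genes could share signal on the array. Among the falls, Nt5dc2, a nucleotidase-like gene, differed by -1.01 ± 0.20 (adjusted p = 0.00805). Mc5r, a melanocortin receptor, differed by -0.96 ± 0.22 and Fscn1, an actin bundler, by -0.82 ± 0.18. These passed in 4 and 3 of 8 fits.

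The direct test of whether age acted differently in the genotypes is the interaction, Gaa-/- change minus WT change. It passed for 9 genes (0.0467% of those tested), 3 with the change more positive in Gaa-/- and 6 with it more negative. The count was 5 without Gaa-/- 4 months replicate 3, and 6 without Gaa-/- 1.5 months replicate 1 or WT 4 months replicate 1. Serpina3n and Aqp4 combined a large change in Gaa-/- with little in WT. Serpina3n, a secreted protease inhibitor of the acute phase with close family copies that could share signal, read 7.44, 7.54, 7.46 and 7.71 in Gaa-/- at 1.5 months and 9.03, 9.24, 9.45 and 9.30 at 4 months. WT arrays read 6.98, 6.86, 6.74 and 6.96 and 7.20, 7.16, 6.98 and 7.30. The change was 1.72 ± 0.16 (3.29-fold) in Gaa-/- and 0.28 ± 0.16 in WT, an interaction of 1.44 ± 0.22 (adjusted p = 0.00264). At 6 and 9 months the Gaa-/- means stayed high, at 9.56 and 9.56.

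Aqp4, the water channel of the fast fibre membrane, went the other way. Gaa-/- arrays read 6.71, 7.06, 7.05 and 6.07 at 1.5 months and 5.01, 4.85, 4.91 and 5.12 at 4 months. WT arrays read 8.66, 8.41, 8.49 and 8.34 and 8.37, 8.63, 8.10 and 8.69. Aqp4 was thus already lower in Gaa-/- than in WT at 1.5 months (-1.75 ± 0.21, adjusted p = 8.96e-07) and fell further by 4 months, 3.38-fold, while the WT difference was -0.03 ± 0.21. The interaction was -1.73 ± 0.29 (adjusted p = 0.0067). Ampd1, the muscle AMP deaminase, read 9.40, 9.32, 9.33 and 9.53 in Gaa-/- at 1.5 months and 8.58, 8.78, 8.63 and 8.84 at 4 months, a difference of -0.69 ± 0.12 (adjusted p = 0.00318). In WT the difference was 0.26 ± 0.12, and the interaction was -0.95 ± 0.17 (adjusted p = 0.0158, lost without WT 4 months replicate 1 or Gaa-/- 4 months replicate 3). The Gaa-/- means of Aqp4 at 6 and 9 months, 4.95 and 4.82, and of Ampd1, 8.50 and 8.56, lay near those at 4 months.

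Each of the other 6 genes passed in WT and did not pass in Gaa-/-. Mybph, a myosin-binding protein of the thick filament, fell in WT from 7.99, 8.603, 8.52 and 9.46 to 5.59, 5.72, 5.53 and 5.41. In Gaa-/- it read 8.99, 8.92, 9.45 and 9.31 and then 7.94, 8.31, 8.07 and 8.72, so all 4 Gaa-/- arrays at 4 months stayed above all 4 WT arrays of that age. The differences were -3.08 ± 0.23 in WT and -0.90 ± 0.23 in Gaa-/- (adjusted p = 0.0514), an interaction of 2.17 ± 0.33 (adjusted p = 0.00264). Slc15a5, a solute carrier, rose in WT by 1.96 ± 0.19, from between 6.76 and 6.92 to between 8.43 and 9.12, and read 6.42 to 6.99 and 6.92 to 7.32 in Gaa-/-. Mss51, a muscle gene linked to mitochondrial metabolism, rose in WT by 1.49 ± 0.22, from between 9.22 and 9.62 to between 10.65 and 11.15, and differed by -0.28 ± 0.22 in Gaa-/-. The interactions were -1.58 ± 0.27 (adjusted p = 0.0067) and -1.77 ± 0.32 (adjusted p = 0.0122), the second lost without replicate 1 of Gaa-/- at 1.5 months or replicate 3 at 4 months. Angptl7, a secreted angiopoietin-like protein, fell in WT by 1.47 ± 0.25 and differed by 0.63 ± 0.25 in Gaa-/- (interaction 2.10 ± 0.36, adjusted p = 0.0067). Dusp10, a phosphatase of stress kinases, and the uncharacterised gene 1700001O22Rik rose in WT by 1.06 ± 0.21 and 1.31 ± 0.19 and differed by -0.39 ± 0.21 and -0.14 ± 0.19 in Gaa-/-. Their interactions passed in 6 and 9 of the 16 fits that left out 1 array (adjusted p up to 0.177 and 0.0907). Gaa-/- already differed from WT at 1.5 months for Angptl7 (-1.56 ± 0.25, limma adjusted p = 0.000121) and Dusp10 (1.23 ± 0.21, adjusted p = 0.000201). At 4 months neither gene passed (0.54 ± 0.25 and -0.22 ± 0.21). For Mybph, Slc15a5, Mss51 and 1700001O22Rik the genotypes differed past the threshold at 4 months and not at 1.5 months. The next gene by p, Padi2, a protein-modifying deiminase, did not pass the interaction (adjusted p = 0.0697) and differed by -0.68 ± 0.17 in Gaa-/- (adjusted p = 0.0492, 2 of 8 fits).

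**Figure D5:**
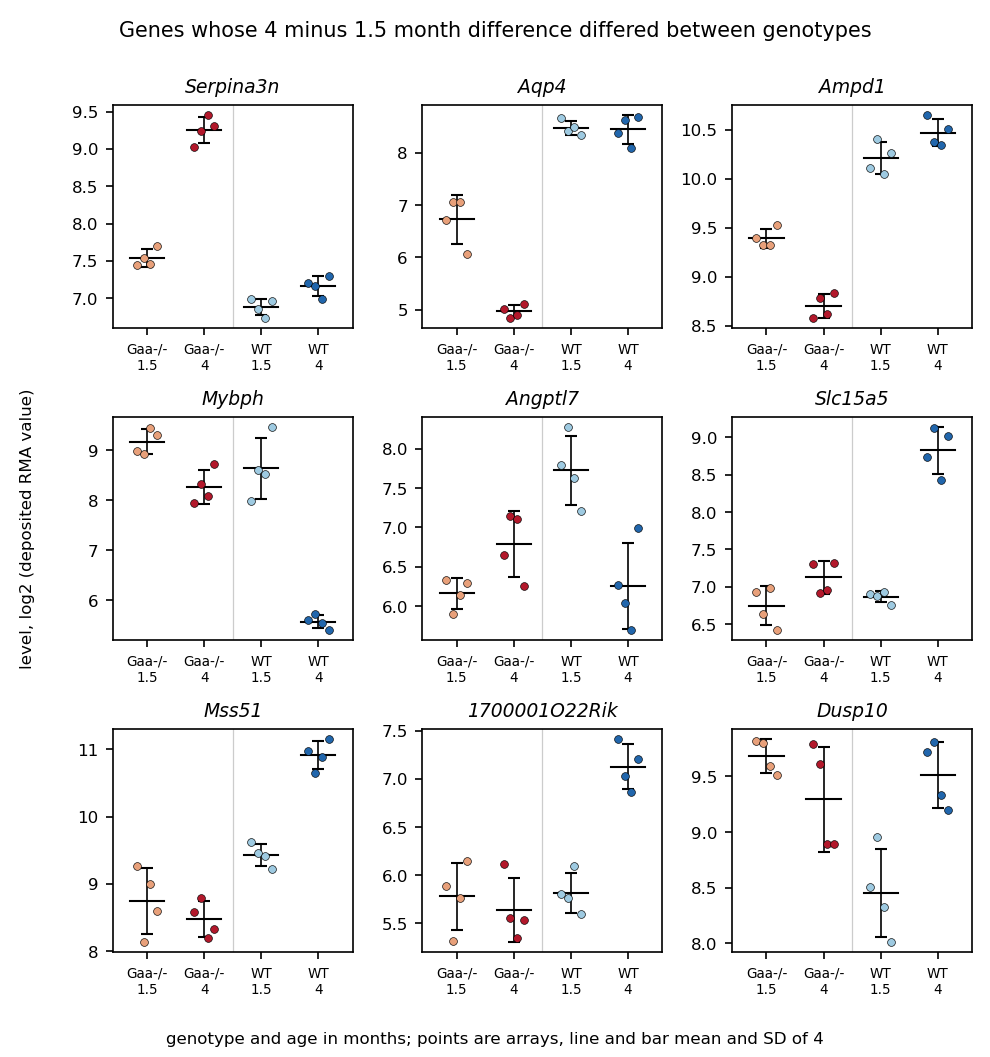
Levels of the 9 genes whose age difference differed between the genotypes (y axis, log2, deposited values) by genotype and age in months (x axis); points are arrays, lines and bars the mean and SD of 4. Serpina3n rises and Aqp4 and Ampd1 fall in Gaa-/-, while the other 6 pass the threshold in WT alone, as Mybph does from 7.99 to 9.46 down to 5.41 to 5.72.

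The genes that passed in both genotypes numbered 18, which is 8.78% of the Gaa-/- calls and 20.5% of the WT calls. All 18 went the same way in both, 9 higher and 9 lower, and 0 of them passed the interaction. Whether or not they passed in WT, 164 of the 205 Gaa-/- calls had a WT difference of the same sign (114 of the rises and 50 of the falls). The share of all genes with the same sign was not counted. The median size of the WT difference of the 205 was 0.22 log2 units. For 195 of them the difference was larger in Gaa-/-, which the choice by the Gaa-/- p favours. Beside the clock genes and Usp2, the 18 included Ell2, an elongation factor of transcription (0.91 ± 0.12 in Gaa-/- and 0.59 ± 0.12 in WT), and Amy1, an amylase (1.07 ± 0.18 and 1.10 ± 0.18). Also higher in both were Otub2, Slc16a9, Ypel2, Lrrc30 and Noxred1. Adh1, Tspan4, Cep85l and Gstt2 were lower in both. Lrrc30 was lost without Gaa-/- 1.5 months replicate 3, and Adh1, Cep85l and Gstt2 passed in 2, 4 and 2 of the 8 fits. The other large WT changes were falls of Myh2, the type IIA myosin (-1.66 ± 0.37, adjusted p = 0.0249), and of Actc1, cardiac actin (-1.58 ± 0.23, adjusted p = 0.000199), and a rise of Npr3, a natriuretic peptide receptor (1.23 ± 0.21, adjusted p = 0.00168). In Gaa-/- these 3 differed by -0.30 ± 0.37, -0.47 ± 0.23 and 0.37 ± 0.21, none past the threshold, and no interaction passed (adjusted p = 0.676, 0.328 and 0.53). Actc1 was already lower in Gaa-/- than in WT at 1.5 months (-1.198 ± 0.23, limma adjusted p = 0.00128), with -0.094 ± 0.23 at 4 months. Myh2 and Npr3 did not differ between the genotypes past the threshold at 1.5 months.

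The later ages show where these genes went next in Gaa-/-. The genes were chosen on the 4-month arrays, so the counts are a description with no test. Of the 138 genes that rose, the 6-month mean lay on the 4-month side of the midpoint between the 2 earlier ages for 115, and the 9-month mean for 75. Of the 67 that fell, the counts were 53 and 45. Rrad, for example, had means of 8.11 at 6 months and 6.88 at 9 months, against 6.41 and 8.08 at 1.5 and 4 months. Atf3 had 6.97 and 6.12, against 6.15 and 7.48. Map1b stayed high, at 9.31 and 9.47, and Frzb and Lrtm1 went lower still, to 6.14 and 7.14 at 9 months.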

How the data were processed

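The deposited values are log2 intensities, 1 per probe set and array; the authors used RMA and the R package affy, per the submitters' processing notes. The sources used here give no versions, genome build or filters. RMA applies quantile normalization, which removes any shift shared by all genes. Of 20079 probe sets, 19291 carry 1 symbol in the platform annotation, 0 several and 788 none, and no dim genes were removed. With limma 3.58.1 (R 4.3.3), 1 mean for each group was estimated from all 32 arrays together (24 residual and 6.93 prior degrees of freedom). Contrasts were Gaa-/- 4 minus 1.5 months, the same in WT, their difference (the interaction) and Gaa-/- minus WT at each age. P-values are two-sided and adjusted by Benjamini-Hochberg over 19291 genes, with a threshold of 0.05. The scripts were tested on simulated data. Gaa-/- arrays of 1 age correlated over all genes at 0.982 or above at 1.5 and 4 months and at 0.977 or above at 6 and 9 months. The number of arrays, 4 a group, limits the precision.

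The members, the 46 gene lists and the tests were chosen with earlier results of these data known. In the lists, 100 entries had no measured symbol and are not analysed here. Named genes were Gaa, the 15 largest rises and falls without overlap, the 10 smallest interaction p-values, the 5 largest WT changes each way and, per list, the 4 smallest p-values and all calls (every member of lists of 7 or fewer). Per1, Per2, Cry2, the genes called in both genotypes and those in the other observations were named outside this rule, after their values were seen. Alternatives were other scalings, covariates, variance models and array subsets.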

Additional observations from a re-analysis of the deposited data

Results flagged for a closer look

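The interaction of genotype with age passed for 9 genes, as a test of the difference itself. Gaa-/- change minus WT change was 2.17 for Mybph, 2.10 for Angptl7 and 1.44 for Serpina3n. It was -1.77 for Mss51, -1.73 for Aqp4, -1.58 for Slc15a5, -1.45 for Dusp10, -1.45 for 1700001O22Rik and -0.947 for Ampd1. Mybph, Angptl7, Slc15a5, Serpina3n and Aqp4 passed in all 16 fits that left out 1 array, Ampd1 and Mss51 in 14, 1700001O22Rik in 9 and Dusp10 in 6. Under the 9 other processing alternatives, Mybph, Slc15a5 and Serpina3n passed in all. Angptl7, Aqp4, Ampd1, Mss51 and 1700001O22Rik were lost with a replicate block on the arrays compared (limma, adjusted p 0.063 for Aqp4 and 0.104 for Angptl7). Dusp10 was lost with only the arrays compared and after a second quantile normalization.

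One array stood apart from the other 3 of its group for 14 of 232 combinations of a named gene or array property with a Gaa-/- age. Chance alone flags about 1 in 20. At 1.5 months these were Actc1 (10.80, the others 9.68 to 9.85), Nfil3 (6.57, the others 5.99 to 6.03), Ltbp1 (6.91), Nqo1 (6.99), Padi2 (8.59, the others 9.03 to 9.12) and Trim63 (10.35). At 4 months they were Adh1 (8.21), Atf3 (6.77, the others 7.64 to 7.78), Ciart (5.41, the others 4.39 to 4.52), Col6a3 (8.19), Mest (6.61), Tcap (9.60), Tgfbr1 (7.80) and Ypel2 (6.69).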

How the results depend on the processing

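For Gaa-/- 4 minus 1.5 months, the 205 calls became 108 with only the 8 arrays compared, 430 with brighter genes only (9645 tested), 95 with the array spread as a covariate, 65 with a replicate block on the 8 arrays compared, 325 with a trended and robust variance and 1057 with array weights. They were 183 after a second quantile normalization, 252 after median-centring and 228 with a replicate block on 32 arrays. Leaving out 1 array gave 79 to 466. For WT, the 88 calls became 31, 168, 104, 46, 129 and 326 in the first 6 of these settings, in that order, and 53 to 151 without 1 array. For the interaction, the 9 calls became 16, 30, 16, 4, 25 and 44, and 5 to 12 without 1 array. The causes of these shifts were not tested, and some settings also use fewer genes or arrays. Replicate numbers showed no clear pairing of the Gaa-/- arrays: the correlation of same-numbered deviations was -0.113 to 0.029, and the best match was the same number for 1 of 4. In WT the correlation was -0.0473 to 0.375, highest for replicate 3, and the best match was the same number for 2 of 4. Whether same-numbered WT arrays share a structure was not tested. Of the 87 called genes named in the text, 84 kept their call after median-centring, 74 after a second quantile normalization, 52 with the spread covariate, 38 with the replicate block on 8 arrays and 51 to 81 without 1 array. None of the 87 reversed. For 38 called genes the lower group lay under the lowest array median, and no background level was measured.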

Other observations

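The genes named here were chosen after their values were seen, and no list or theme was tested with them. Ky, Smco1 and Tcap fell in Gaa-/- between 1.5 and 4 months. Ky, which encodes the kyphoscoliosis peptidase of the Z-disc, read 7.92, 8.48, 8.07 and 8.42 and then 7.84, 7.36, 7.11 and 7.37, a difference of -0.80 ± 0.14 (adjusted p = 0.00318), against 0.13 ± 0.14 in WT (interaction adjusted p = 0.0966). Smco1, a membrane protein, differed by -0.74 ± 0.13 (adjusted p = 0.00254) and by 0.05 ± 0.13 in WT. Tcap, the titin cap, differed by -0.68 ± 0.14 (adjusted p = 0.0109) and was lost without Gaa-/- 1.5 months replicate 4 (adjusted p = 0.0566).

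Other genes rose. Slc39a10, a zinc importer, read 6.93, 6.79, 6.61 and 6.66 and then 7.68, 7.84, 7.98 and 8.08, a rise of 1.15 ± 0.15 (adjusted p = 4.84e-05), with 0.15 ± 0.15 in WT (interaction adjusted p = 0.0804). Bcl6, a transcriptional repressor, rose by 0.70 ± 0.13 (adjusted p = 0.00397). Tgfbr1, a receptor for TGF-beta, rose by 0.54 ± 0.11 (adjusted p = 0.0061), and Ltbp1, a TGF-beta binding protein, Tgif1, a corepressor, and Smad3, a signal carrier, rose by 0.63, 0.63 and 0.45. Tgfbr1 passed in 8 of the 8 fits that left out 1 array, and Ltbp1, Tgif1 and Smad3 in 6, 4 and 2. Gem, a relative of Rrad, rose by 0.81 ± 0.17 (6 of 8 fits), Sik1, a kinase induced by cyclic AMP, by 1.10 ± 0.25 (5 of 8), and Rcan1, a calcineurin inhibitor, by 1.07 ± 0.27 (2 of 8). Klk1b8, a second kallikrein, rose by 1.17 ± 0.28 (3 of 8).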
